A study of Mus musculus with 32 samples.

Results

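The clones described here are 100 cDNA clones whose log ratio stood higher, on the deposited scale, in NIH 3T3/4E cells than in NIH 3T3 cells in each of 4 matched comparisons. They were chosen from 15169 clones measured in all samples of a 2-colour array study of polysome RNA. The measured values chose them. For every clone, C was the 4E minus NIH3T3 difference, F the heavy minus light difference and S the serum stressed minus basal difference, each the mean of its 4 matched strata. Clones with an absolute C above both the absolute F and the absolute S numbered 4071, and of these 729 had a positive cell line difference in all 4 strata and 652 a negative one. The 729 were ranked by the smallest of their 4 single-stratum differences, and the first 100 were taken.

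NIH3T3 is an established mouse fibroblast line, and the 4E cells are its derivative that overexpresses the translation initiation factor eIF4E ectopically. The sources used here give neither the promoter that drives eIF4E nor the number of cell clones behind the 4E line. Each line was sampled in complete growth medium (basal) or after 16 h without serum (serum stressed), and from each state a light pool (gradient fractions 4 to 6) and a heavy pool (fractions 7 to 10) of polysome RNA was hybridised. These are 8 groups with 2 samples in each. The reference on every array was polyA RNA of NIH3T3 cells in full medium that had not been run on a gradient, so a value of 0 is a ratio equal to that of the median clone of the array and not an absolute level. Separate cultures are not named in the labels for the 2 samples of each group. The p-values thus reflect only how far these samples spread, which may be technical.

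eIF4E binds the cap at the 5′ end of mRNAs and recruits the scaffold and helicase that let the small ribosomal subunit load. It is limiting for translation in many cells, and its overexpression transforms rodent fibroblasts and protects them from apoptosis. On a sucrose gradient, transcripts that carry more ribosomes sediment into the heavy fractions. A difference between the lines in how a transcript is shared between the fractions would appear as a cell line by fraction term.

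Positive does not mean more RNA here. No source used here states whether the deposited ratio puts the sample or the reference on top, so every sign below is that of the deposited scale. Genes are not paired with the clone IDs in the files, and the mouse RefSeq gene table (GRCm38.p6) held 0 of these IDs. No gene, pathway, cell type marker or sequence can therefore be given for these clones, eIF4E itself could not be checked, and clones are named by ID. Of the series as a whole, replicate samples correlated across clones at r of 0.53 to 0.68, column medians lay between -0.15 and 0.18 before centring, and precision is limited by how many arrays there are. In the 8 samples of NIH3T3 basal and 4E serum stressed the 2 control rows (buffer and Arabidopsis) had values, and in the other 8 they had none.

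In NIH3T3 the median of the 100 clones lay near 0, and in 4E above it on the deposited scale, with clones on both sides of 0 in either line. Their median group mean in NIH3T3 was -0.15 in heavy basal, -0.07 in heavy serum stressed, 0.12 in light basal and 0.11 in light serum stressed samples. In 4E it was 1.00, 1.21, 1.07 and 1.48 in the same order. For all 15169 clones the medians of the 8 groups lay between -0.00 and 0.01, near 0 because each column was centred on its median. Of the 100 clones, 53 had a mean above 0.5 over the 8 samples of 4E and within 0.5 of 0 over the 8 of NIH3T3. A further 20 were above 0.5 in both lines. Another 13 were within 0.5 of 0 in 4E and below -0.5 in NIH3T3, and 7 were below -0.5 in both. In 5 clones both lines were within 0.5 of 0, and in 2 the lines stood on either side, above 0.5 in 4E and below -0.5 in NIH3T3. The distance from 0 was larger in 4E than in NIH3T3 for 77 of the 100. The rule used these values, and the shares of all clones in these classes were not counted. Nothing is therefore read from these counts.

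**Figure D1:**
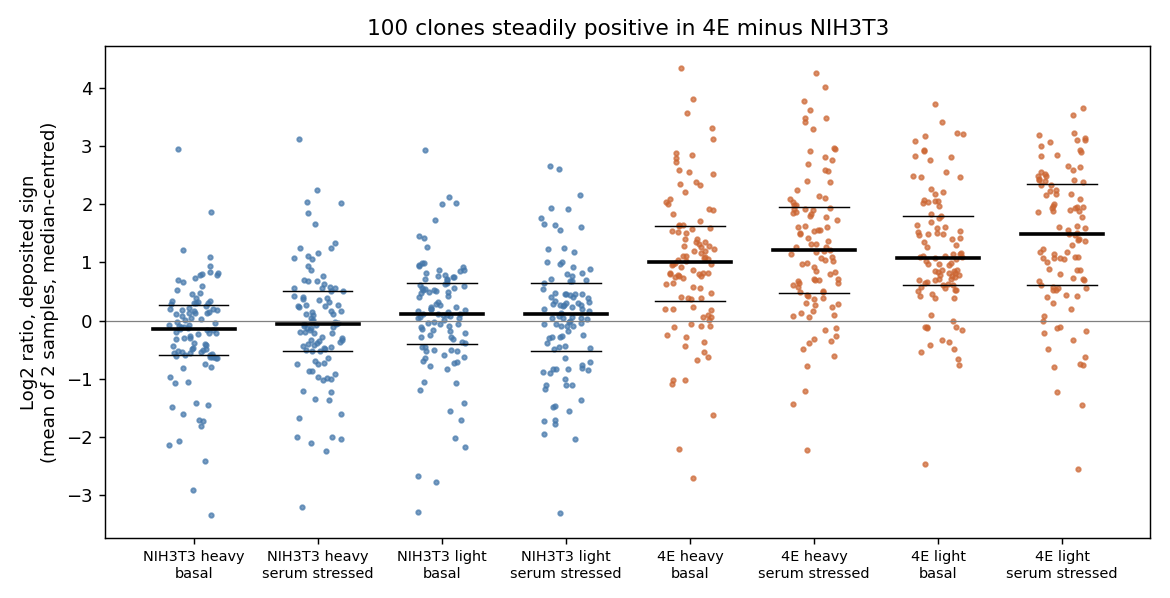
Log2 ratio against the common reference (vertical axis, deposited sign) of the 100 clones in each of the 8 groups; a point is 1 clone's mean of 2 samples, the thick line is the median and the thin lines the quartiles. The NIH3T3 medians lie between -0.15 and 0.12 and the 4E medians between 1.00 and 1.48, with clones spread over several log2 units in both lines.

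The cell line difference is what the rule selected, so its values are a description and carry no test. Averaged over the strata it ran from 0.63 to 3.28 log2 units, with a median of 1.07, against a median of 0.01 over all clones. It was at least 1 in 59 clones, at least 1.5 in 26, at least 2 in 10, at least 2.5 in 4 and at least 3 in 1. The stratum medians were 1.07 in heavy basal, 0.99 in heavy serum stressed, 0.94 in light basal and 1.22 in light serum stressed samples. The smallest stratum was heavy serum stressed in 33 clones, light basal in 31, heavy basal in 21 and light serum stressed in 15. Steady did not mean equal: the range of the 4 strata within a clone had a median of 0.83 and went from 0.17 to 2.60. At the edge of the selection, the clones of rank 99 and 100 had smallest strata of 0.5053 and 0.5051, and the next clones, outside it, 0.5013 and 0.4990. The first clone outside had a larger average than that of rank 100, 1.29 against 0.80. A smallest stratum at least as high as that of rank 100 was found in 123 clones, of which 23 were left out because F (14 clones) or S (11 clones) was at least as large as C.

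In the fit of all clones, 69 of the 100 had a positive cell line difference at an adjusted p under 0.05 (limma, Benjamini-Hochberg adjustment over 15169 clones), beside 1.25% of all clones. All 8 samples of 4E lay above all 8 of NIH3T3 in 23 of the 100, beside 0.178% of all clones. The rule used this contrast, so neither count adds to it.

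Clone H3073H04 ranked first, with a smallest stratum of 2.53. In 4E heavy samples it stood at 3.31 and 3.31 (basal) and at 3.32 and 3.91 (serum stressed), and in 4E light samples at 3.08 and 3.24 (basal) and at 3.16 and 3.12 (serum stressed). In NIH3T3 heavy samples it stood at -0.23 and -0.53 (basal) and at -0.72 and -0.27 (serum stressed), and in NIH3T3 light samples at 0.51 and 0.75 (basal) and at 0.05 and 0.64 (serum stressed). The lines were far apart, and the 4E samples were closer to each other than the NIH3T3 samples. Within NIH3T3 every light sample was above every heavy sample, whereas in 4E every heavy sample was above every light one. The gap in 4E was narrow, from 3.24 (highest light) to 3.31 (lowest heavy). Its cell line difference was 3.28 (SE 0.16).

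Clone H3058D02 ranked second, with a smallest stratum of 2.30. In 4E it stood at 3.65 and 2.59 (heavy basal), 1.96 and 2.22 (heavy serum stressed), 3.31 and 2.86 (light basal) and 3.07 and 2.91 (light serum stressed). In NIH3T3 it stood at -0.44 and 0.03 (heavy basal), -0.42 and -0.01 (heavy serum stressed), 0.27 and 0.30 (light basal) and -0.35 and -0.01 (light serum stressed). The lowest 4E values were those of the heavy serum stressed pool, and they still lay well above all NIH3T3 values. Its cell line difference was 2.90 (SE 0.18).

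**Figure D2:**
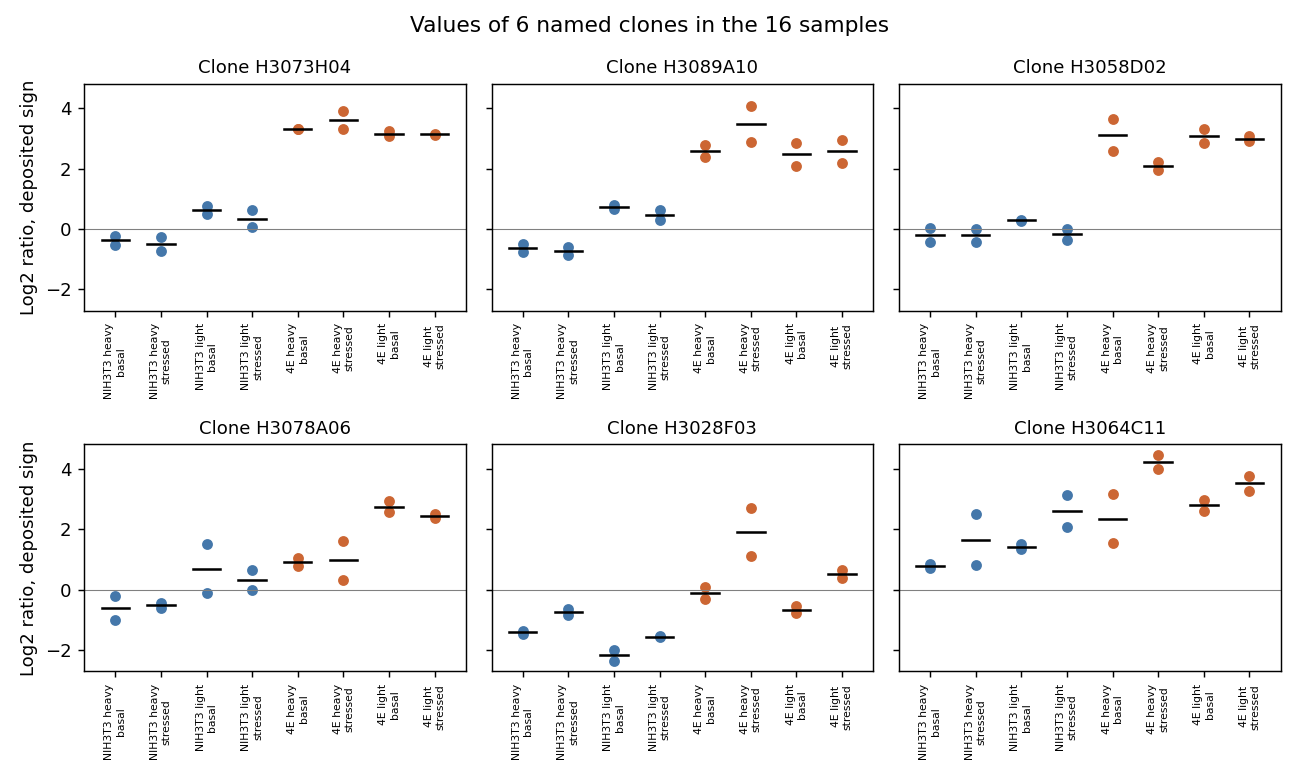
Log2 ratio (vertical axis, deposited sign) of 6 named clones in the 16 samples, with NIH3T3 in blue and 4E in orange; a point is 1 sample and a line the mean of 2 samples. H3073H04 and H3089A10 show light above heavy samples in NIH3T3 but not in 4E, H3078A06 shows light above heavy group means in both lines, H3028F03 shows heavy above light group means in both, and H3064C11 shows serum stressed above basal group means in all 4 pairs.

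Away from the cell line, the largest share of the variation among these clones lay between replicate samples. The cell line took 57.6% of their sum of squares, against 9.96% for all clones, as the rule requires. Replicate samples took 18.7%, the fraction 8.63% and serum 7.91%. The cell line by serum term took 2.38%, the cell line by fraction term 2.21%, the fraction by serum term 1.30% and the term of all 3 factors 1.32%. Over all clones the fraction took 19.6% and the cell line by serum term 12.5%. The rule holds the fraction and serum terms below the cell line term, and ranking by the smallest stratum holds down the terms with the cell line.

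The fraction difference of the 100 clones was more often negative than positive. It was negative in 66 and positive in 34, with a median of -0.19 log2 units (quartiles -0.48 and 0.10), whereas 50.8% of all clones were positive and the median of all was 0.01. The rule bounded the size of this difference but not its sign. A negative sign was also the more frequent among the 729 clones positive in all 4 cell line strata (415 clones, 56.9%), and not among the 652 clones negative in all 4 (297 clones, 45.6%). The sign ran through the states: it was negative in 61 clones in 4E basal, 58 in 4E serum stressed, 67 in NIH3T3 basal and 61 in NIH3T3 serum stressed. All 4 states were negative in 34 clones and all 4 positive in 16, where all clones gave 17.2% and 19.3%. At an adjusted p under 0.05 in limma's fit, 17 of the 100 were negative and 6 positive, beside 8.83% and 9.28% of all clones. The rule used the size of F, so nothing is read from these counts.

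On the positive side, clone H3028F03 had heavy values from -1.47 to 2.70 (median -0.48) and light values from -2.36 to 0.67 (median -1.14). The fractions overlapped across lines, and within NIH3T3 every heavy sample was above every light one. Its heavy minus light difference was 0.87 (SE 0.21). Clone H3124G04 had heavy values from 0.10 to 2.24 (median 1.03) and light values from -0.66 to 0.87 (median 0.14). It was above in the heavy fraction in all 4 states, by 0.71 to 1.09, and its average difference was 0.86 (SE 0.19).

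On the negative side, clone H3078A06 had heavy values from -0.99 to 1.62 (median 0.06) and light values from -0.12 to 2.93 (median 1.93). Its heavy minus light difference was -1.36 (SE 0.26), and it was -1.84 in 4E basal and -0.85 in NIH3T3 serum stressed samples, the ends of its range over the states. Clone H3078A05 had heavy values from -0.49 to 1.80 (median 0.57) and light values from 0.09 to 3.00 (median 2.09), and a difference of -1.25 (SE 0.23). In 4E every light sample of both clones was above every heavy one.

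The lines could also be set side by side for the fraction difference. It was negative in 60 of the 100 clones in 4E and in 66 in NIH3T3, and 74 clones had the same sign in both. Over all clones the same sign was found in 68.8%. In NIH3T3, all 4 light samples lay above all 4 heavy ones in 10 of the 100 (5.44% of all clones) and all 4 heavy above all 4 light in 3 (6.44%). In 4E, light lay above heavy in 12 (5.35%) and heavy above light in 2 (4.82%). Light lay above heavy without overlap in both lines in 3 clones. In 6 clones light lay above heavy in NIH3T3 while the fractions overlapped in 4E, and H3073H04 had the opposite order in the lines. The shares of all clones with these joint orders were not counted, so nothing is read from them.

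**Figure D3:**
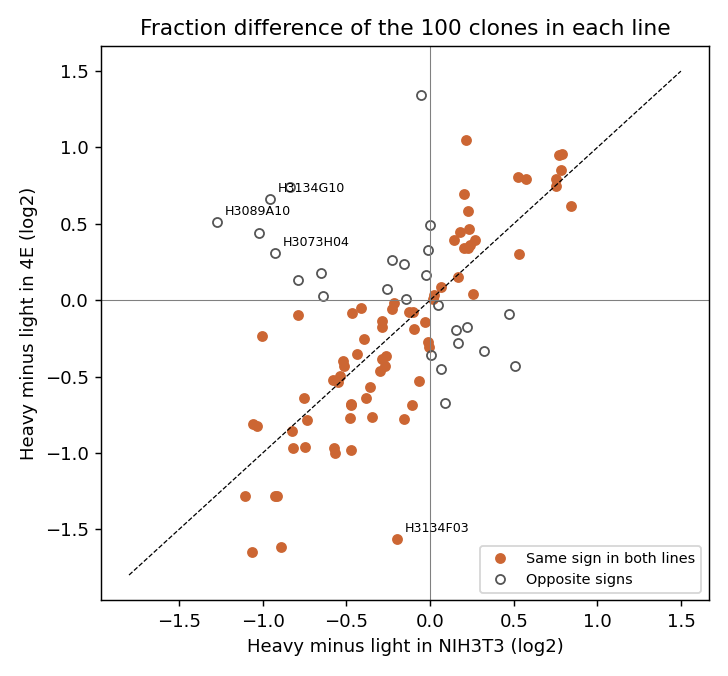
Heavy minus light difference in NIH3T3 (horizontal axis, log2) against that in 4E (vertical axis, log2) for the 100 clones; a filled point has the same sign in both lines (74 clones), an open one opposite signs, and the dashed line marks equal differences. Negative differences outnumber positive ones in both lines, with 66 of 100 in NIH3T3 and 60 in 4E, and H3073H04, H3089A10 and H3134G10 lie in the upper left, negative in NIH3T3 and positive in 4E.

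The cell line by fraction term is the cell line difference in the heavy fraction minus that in the light. It is built from the strata that ranked the clones and is described without a test. Its median was 0.04, from -1.37 to 1.79. Clone H3089A10, of rank 4, had the highest value. Its NIH3T3 heavy samples stood at -0.49, -0.77, -0.59 and -0.86 and its NIH3T3 light samples at 0.80, 0.65, 0.63 and 0.29. Its 4E heavy samples stood at 2.38, 2.80, 2.89 and 4.08 and its 4E light samples at 2.09, 2.85, 2.96 and 2.19. The fractions were apart in NIH3T3 and overlapped in 4E, and the heavy minus light difference went from -1.27 in NIH3T3 to 0.51 in 4E.

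Clone H3134G10, of rank 6, had the second highest term, 1.62 (SE 0.50), with heavy minus light differences of -0.96 in NIH3T3 and 0.66 in 4E. Its 4E values were 2.20 and 3.25 (heavy basal), 2.97 and 3.98 (heavy serum stressed), 1.72 and 3.20 (light basal) and 2.68 and 2.15 (light serum stressed). After each line's mean was taken off, H3089A10 and H3134G10 correlated at r = 0.91 over the 16 samples, which share arrays. Both are named for a high cell line by fraction term, which stays in after that step, so nothing is read from this r. The lowest term was that of clone H3134F03, -1.37 (SE 0.43). Its 4E light samples stood at 2.47, 2.49, 3.00 and 2.85, all above its 4E heavy samples at 0.83, 1.20, 1.35 and 1.17. In NIH3T3 its light samples, at 0.37, 1.08, -1.21 and 0.26, overlapped its heavy samples, at -0.26, -0.68, 0.10 and 0.55. Clone H3126G10 followed at -0.94 (SE 0.47), and at -0.55 without the 1st sample of NIH3T3 light serum stressed, which stood at -1.49.

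Serum differences were centred nearer to 0 than fraction differences. The serum stressed minus basal difference of the 100 clones had a median of 0.12 (quartiles -0.16 and 0.48) and ran from -0.99 to 1.19. It was positive in 58 clones and negative in 42, close to the 52.3% positive of all clones, whose median was 0.02. A positive sign was found in 463 (63.5%) of the 729 clones positive in all 4 cell line strata and in 302 (46.3%) of the 652 negative in all 4. With quantile normalization the median was -0.00 and 49 were positive, so no direction is given for the serum difference of these clones. In 4E, 67 clones were positive (median 0.23), and in NIH3T3 55 (median 0.07). All 4 serum differences were positive in 31 clones and all 4 negative in 16, against 11.4% and 8.36% of all clones, and both lines had the same sign in 68 clones, against 45.4%. The strata that ranked the clones are built from the same group means as these serum differences, so nothing is read from these shares.

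Clone H3044G12 had the most positive serum difference, 1.19 (SE 0.49). Its serum stressed samples ran from 0.51 to 4.41 (median 1.63) and its basal samples from -0.36 to 2.89 (median 0.40). The 2 samples of 4E heavy serum stressed stood at 0.75 and 4.41, and without the second of these the difference was 0.73. Clone H3064C11 was steadier, with serum stressed samples from 0.82 to 4.47 (median 3.20), basal samples from 0.72 to 3.16 (median 1.52) and a difference of 1.17 (SE 0.28). On the negative side, clone H3078F02 had a difference of -0.99 (SE 0.20), with serum stressed samples from -1.63 to 1.63 (median -0.03) and basal samples from -0.32 to 1.57 (median 1.48). It differed by -1.23 (heavy) and -1.84 (light) in NIH3T3 and by -0.52 and -0.38 in 4E. Clone H3028F05 differed by -0.73 (SE 0.23), by -0.92 and -1.51 in NIH3T3 and by -0.04 and -0.47 in 4E. In all 4 of these clones the serum stressed and basal samples overlapped across lines.

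**Figure D4:**
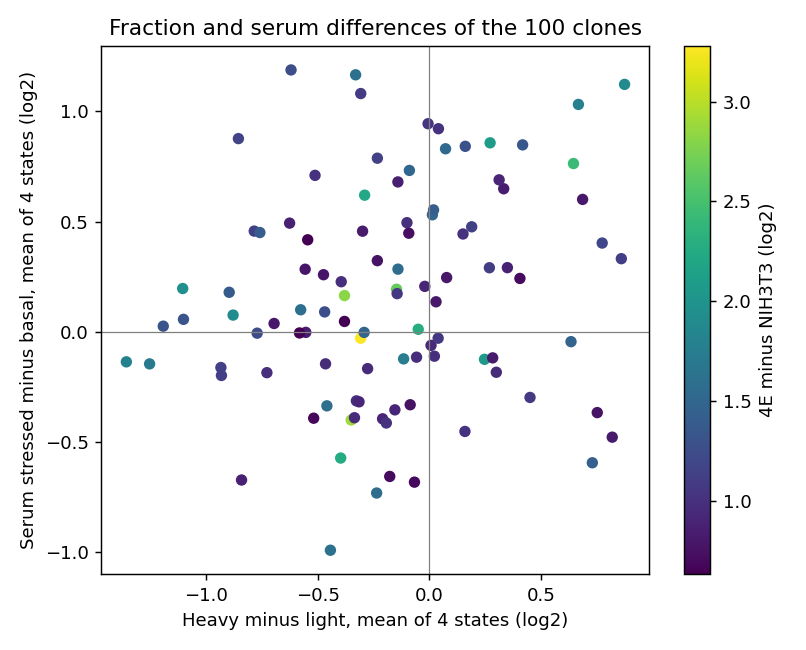
Heavy minus light difference (horizontal axis, log2) against serum stressed minus basal difference (vertical axis, log2) of the 100 clones, each the mean of 4 states; colour is the 4E minus NIH3T3 difference in log2 units. The points lie left of 0 for 66 clones and above 0 for 58, and 36 lie in the upper left, 30 in the lower left, 22 in the upper right and 12 in the lower right.

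The cell line by serum term is the cell line difference in serum stressed minus that in basal samples. It was positive in 63 clones, beside 50.2% of all clones, and had a median of 0.11, from -1.63 to 1.44. It too is built from the ranked strata and has no test here. Clone H3132D08 was highest at 1.44 (SE 0.39), with serum differences of 1.17 in 4E and -0.27 in NIH3T3. Clone H3040G10 followed at 1.35 (SE 0.43). Clone H3048B06 was lowest at -1.63 (SE 0.52): its 4E basal samples stood at 3.38, 2.37, 3.61 and 3.19 and its 4E serum stressed samples at 1.78, 0.86, 1.35 and 2.99, while all 8 NIH3T3 samples lay between -0.22 and 0.63. Clone H3070F06 was next at -0.89 (SE 0.35).

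The control rows split the samples along the cell line by serum term, so each cell line comparison at 1 serum state crosses that split. Between the samples with control values, 4E serum stressed minus NIH3T3 basal, the median of the 100 clones was 1.36. Between those without, 4E basal minus NIH3T3 serum stressed, it was 1.09. Each clone was positive on both sides, which the rule fixes, because the sides equal C plus S and C minus S. The difference exceeded 0.5 in 93 clones on the first side and in 80 on the second, beside 15.1% and 10.3% of all clones. The rule used C, so nothing is read from these counts. Serum and the split cannot be told apart within a line, and their part in the values was not tested.

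The fraction by serum term was the one comparison of the design that the choice of clones did not use. It asks whether serum withdrawal changed the ratio differently in heavy and light fractions, and is the serum difference in heavy minus that in light samples, averaged over the lines. None of the 100 clones passed at an adjusted p under 0.05 in limma's fit (0% of all clones passed), and 2 of the 100 had an unadjusted p under 0.05, beside 2.38% of all clones. The median was 0.07, against 0.02 over all clones, with 56 clones positive and 44 negative, beside 51.7% positive over all clones. In 4E alone the median was -0.04 with 48 positive (48.6% of all clones). In NIH3T3 alone it was 0.16 with 68 positive (53.0%). The terms of single lines also hold the strata that ranked the clones, so nothing is read from them. For the term averaged over the lines, the 95% half-width for a clone, without adjustment, had a median of 0.91 log2 units and ran from 0.59 to 2.12. When each of the 32 columns was counted as a sample, 1 of the 100 passed, and 231 of all clones.

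Clone H3136D10 had the largest term, 1.79 (SE 0.66), with an unadjusted p of 0.016 and an adjusted p of 1.00 in limma's fit. In 4E its heavy samples went from -1.86 and -2.55 (basal) to 0.39 and 0.08 (serum stressed), without overlap. Its 4E light samples, at -0.95 and 0.20 (basal) and at -0.67 and -2.22 (serum stressed), overlapped. In NIH3T3 the serum differences of this clone were 0.81 (heavy) and 0.74 (light), without the gap between the fractions seen in 4E. Clone H3056H08 had a term of 1.05 (SE 0.52, adjusted p = 1.00 in limma's fit). On the negative side clone H3043C12 stood at -0.89 (SE 0.38, adjusted p = 1.00 in limma's fit) and clone H3067B08 at -0.59 (SE 0.42, adjusted p = 1.00 in limma's fit). The term of H3067B08 was -0.32 without the 2nd sample of 4E light basal and -0.35 without the 1st of 4E heavy basal.

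**Figure D5:**
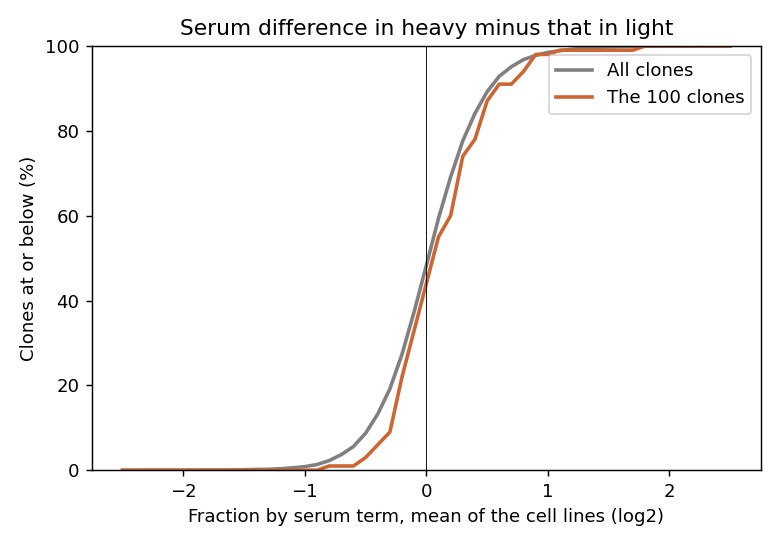
Share of clones (vertical axis, percent) at or below each value of the fraction by serum term (horizontal axis, log2), for all 15169 clones in grey and the 100 clones in orange. The medians are 0.02 and 0.07. Of the 100 clones 3 lie below -0.5 and 13 above 0.5, against 8.72% and 10.8% of all clones.

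The quality of the measurements was not part of the rule. The deposited columns come in twos, a higher and a lower column for each sample. The mean gap between the columns over 16 samples was smaller in the 100 clones, with a median of 0.18 log2 units against 0.22 for all clones. Exactly equal columns were rarer: 37 of the 100 had unequal columns in every sample, against 19.9%. Equal columns in 5 or more samples were found in 3 of the 100, against 13.0% of all clones. Between replicate samples they varied more than clones at large, with a median residual SD of 0.45 against 0.39, and 70 of the 100 exceeded the median of all clones.

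Among themselves the 100 clones had few shared patterns once each line's mean was taken off. The median r over the 16 samples was 0.06 for the 4950 combinations of these clones, with quartiles of -0.20 and 0.31. In 6 combinations (0.121%) r was 0.9 or more, against 0.0295% of all combinations of clones. They were H3028F03 with H3028F04 (r = 0.99), H3078A05 with H3078A06 (r = 0.95), H3030A12 with each of those last clones (r = 0.94 and 0.92), H3054B12 with H3118F08 (r = 0.93), and H3089A10 with H3134G10 (r = 0.91). H3028F04, H3030A12, H3054B12 and H3118F08 are named here after their values were seen. With the line means left in, none of the 15069 other clones correlated at 0.9 or more with the mean of the 100 clones, and 9 of the 100 did. That mean carries the cell line difference that chose the clones, so nothing is read from these counts.

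Clone IDs end in a plate row and column, read here as the well of the clone collection. The 100 clones came from 72 of 159 plates, with at most 4 on 1 plate. Plates 3121 to 3159 held 34 of them (24.4% of all clones), plates 3001 to 3040 held 23 (25.2%), plates 3041 to 3080 held 27 (25.2%) and plates 3081 to 3120 held 16 (25.2%). In 5 combinations the clones lay in neighbouring wells. For H3028F03 with H3028F04 and H3078A05 with H3078A06 the profiles were the near-identical ones above. For the other combinations of neighbours the r without line means was 0.59, -0.20 and -0.51. Over all clones, side-by-side wells of 1 row had a median r of 0.08, and 0.499% of them reached 0.9. The combination at -0.51 lay across neighbouring rows, for which all clones were not counted. Neighbouring wells and clones of 1 transcript cannot be told apart from the IDs.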

How the data were processed

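The authors deposited log ratios of each polysome sample against a common NIH3T3 polyA reference, per the labels' 2 channels, read here as log2. Which log base, centring, ratio direction, scanner and within-array normalization the authors used is not given in the sources used here. The largest absolute value was 11.3. The table held 15247 clones and 2 control rows, and 78 clones with a missing value were left out. In every group, title numbers 1 with 2 and 3 with 4 were a higher and a lower column of 1 sample (no exception within 1e-06), so their mean was used, which leaves 16 samples. Each of the 32 columns was centred on its median before the rule was applied.

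Differences were fitted with limma 3.58.1 under R 4.3.3, as 8 group means over 16 samples, with contrasts and empirical Bayes moderation. P-values were adjusted by Benjamini-Hochberg over all 15169 clones (8 residual and 6.52 prior degrees of freedom, threshold 0.05). The fit was tested on simulated data. Tables were made with Python 3.11.15. The clones, comparisons and alternatives were chosen with earlier results of these data known. Clones were named by a rule: the 2 ranked highest for the cell line, and the 2 most positive and 2 most negative for each other term. Gene lists and markers could not be used without gene names. Alternatives were no centring, quantile normalization, scaling to 1 median absolute deviation, single columns, only clones with unequal columns, array weights, a replicate block and leaving out each sample.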

Additional observations from a re-analysis of the deposited data

Results flagged for a closer look

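Clone H3073H04 differed between the fractions in opposite directions in the lines. Every heavy sample was above every light one in 4E, with a difference of 0.31. The gap was narrow there: the lowest heavy sample stood at 3.31 and the highest light one at 3.24. The highest heavy sample stood apart at 3.91, and the residual SD of this clone was 0.26. In NIH3T3 every heavy sample was below every light one, with a difference of -0.92. The difference between the lines was not tested, because it is built from the strata that ranked the clones.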

How the results depend on the processing

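Applied again, the rule kept 97 of the 100 clones without centring, 83 after quantile normalization, 85 after each column was scaled to 1 median absolute deviation, and 79 to 90 with 1 sample left out. Among clones with unequal columns in every sample, 37 of the 100 could be ranked. These 37 are kept by construction, since their values do not change. Of them 11 had a positive fraction difference and 21 a positive serum difference. Scaling to 1 median absolute deviation, which changes the unit, gave a median cell line difference of 1.80. With 1 sample left out, this median was 1.04 to 1.12, the median fraction difference -0.25 to -0.15, the median serum difference 0.08 to 0.17, and the median fraction by serum term 0.02 to 0.12. Positive fraction differences numbered 30 to 36 and positive serum differences 54 to 66. For fraction by serum 0 clones, and 0 of the 100, passed with the replicate block, as without it. With each column as a sample 231 clones passed, 1 of them among the 100. With 1 sample left out 0 to 6 clones passed (6 without the 2nd sample of NIH3T3 heavy basal), and 0 of the 100 under each of the 16 omissions. Among the 100, negative and positive fraction differences called by limma numbered 15 and 5 with the block and 31 and 12 with single columns. With 1 sample left out they numbered 14 to 18 and 4 to 7. How many of all clones were called under these alternatives was not counted, so nothing is read from these numbers. Equal numbers gave no steady pairing of the samples. Deviations of same-numbered samples correlated at r of -0.33 to 0.36 over 28 combinations of groups. In 9 combinations r was above 0.1 and in 14 below -0.1. Variation shared by samples of different groups was not tested.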
